A study of Mus musculus with 4 samples.

Results

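The T cell receptor V genes are taken here as the genes whose symbol starts with Trav (alpha chain) or Trbv (beta chain) in both deposited gene lists: 163 genes, 128 Trav and 35 Trbv, of 32285 genes listed for the CD45 sort and 31053 listed for the T cell sort. They were followed in T cells, defined as cells with at least 3 UMIs of Cd3d, Cd3e and Cd3g together and at most 3 UMIs of C1qa, C1qb and Lyz2 together. A UMI is a molecular tag that counts 1 captured RNA molecule. Of the 163 genes, 90 had a UMI in at least 1 of 3084 T cells (67 Trav and 23 Trbv) and 73 had none.

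The tumors were subcutaneous B16 melanomas of wild-type C57BL/6 mice, all grown from 1 single-cell clone with a doxycycline-inducible ZsGreen (ZsG) transgene, induced through the drinking water and collected on day 8. Tumor leukocytes were sorted as CD45+ cells (CD45 sort) or as CD45+ T cells (T cell sort), each as ZsG-negative and as ZsG-positive cells, the latter carrying the fluorescent protein of the tumor. The marker of the T cell gate is TCRb in the names of the deposited data and CD3 in the study's methods. There was 1 library for each of the 4 groups and no replicate, so no test between groups was possible, and each interval given is an exact one at the 95% level for counting error only.

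A V gene supplies most of the variable part of a receptor chain. In a developing T cell a Trav gene is joined to a J segment, and a Trbv gene to a D and a J segment, and the joined stretch is transcribed with the constant gene Trac, or with Trbc1 or Trbc2. Most T cells carry a single productive Trbv gene, while several Trav genes may be transcribed in a cell. The V part lies at the 5′ end of the transcript and these libraries were made with a 3′ kit, so a V gene is read in only a part of the T cells. Trav11 builds the invariant NKT receptor, Trav1 the receptor of mucosal-associated invariant T cells, and Trav genes with dv in the symbol can also join to the delta chain of gamma delta T cells.

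The deposited files and the library names disagreed on which library of the T cell sort was ZsG-positive. The larger one was taken as ZsG-positive, following the files, and the one with 1136 barcodes as ZsG-negative, and under the other reading every ZsG direction in that sort would turn round. Pairs of libraries shared 1 to 6 barcodes, and 0 among T cells. In the order CD45 sort ZsG-negative, CD45 sort ZsG-positive, T cell sort ZsG-negative and T cell sort ZsG-positive, which is kept below, there were 1610, 126, 639 and 709 T cells with a median of 7146, 6551.5, 5789 and 6210 UMIs. Trbc UMIs were found in 99.1% to 100% of them and Trac UMIs in 81.6% to 92.9%. The NK cell receptor Ncr1 was found in 195, 5, 2 and 4 of these cells, the delta constant gene Trdc in 187, 8, 5 and 8, and the macrophage gene C1qa in 14, 38, 9 and 25. The part of such cells in the results was not tested, except where values without them are given.

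Several V genes are near copies, and Cell Ranger does not count a read that matches more than 1 gene. The ends of the 3 Trav16 genes are shown because this was the Trav family found most often in the T cell sort. Each line gives the last 80 bases of the GENCODE vM21 transcript (GRCm38), 5′ to 3′, with the codon of the cysteine that precedes the third complementarity-determining region in capitals. Trav16 lies at chr14:53743104-53743705, Trav16n at chr14:53351028-53351621 and Trav16d-dv11 at chr14:53047287-53047821.
Trav16: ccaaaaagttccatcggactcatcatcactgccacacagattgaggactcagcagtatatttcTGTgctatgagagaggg
Trav16n: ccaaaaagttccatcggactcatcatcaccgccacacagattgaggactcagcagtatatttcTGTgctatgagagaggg
Trav16d-dv11: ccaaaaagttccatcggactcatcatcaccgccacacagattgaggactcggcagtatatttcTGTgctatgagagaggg
Over the last 250 bases Trav16 and Trav16n differed at 3 positions, Trav16n and Trav16d-dv11 at 2, and Trav16 and Trav16d-dv11 at 5.

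The Trbv12 and Trbv13 genes are shown because they encode the chains known by the older names Vb5 and Vb8, and because they differ at far more positions than the Trav16 genes.
Trbv12-1: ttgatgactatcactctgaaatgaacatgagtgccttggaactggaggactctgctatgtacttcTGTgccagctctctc
Trbv12-2: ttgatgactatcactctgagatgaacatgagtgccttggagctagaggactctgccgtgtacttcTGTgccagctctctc
Trbv13-1: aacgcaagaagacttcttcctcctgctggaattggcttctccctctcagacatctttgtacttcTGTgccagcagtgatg
Trbv13-2: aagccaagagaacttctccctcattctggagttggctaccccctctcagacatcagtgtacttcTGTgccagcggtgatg
Trbv13-3: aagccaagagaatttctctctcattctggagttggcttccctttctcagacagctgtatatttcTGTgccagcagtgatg
Trbv12-1 (chr6:41113550-41114067) and Trbv12-2 (chr6:41118851-41119364) differed at 30 of the last 250 bases. Trbv13-1 (chr6:41116007-41116468) and Trbv13-2 (chr6:41121396-41121832) differed at 32, and Trbv13-2 and Trbv13-3 (chr6:41130147-41130585) at 22.

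The last set holds genes whose distribution the comparisons below turn on: Trav1 (chr14:52427928-52428876), Trav13-4-dv7 (chr14:53757356-53757921), Trbv2 (chr6:41047340-41047995) and the pseudogene Trav22 (chr14:53926978-53927595). The codon was sought as TGT or TGC followed by a codon that starts with GC. Trav22 had no such match in the stretch shown, which holds a TGT followed by TCT, so no codon is marked.
Trav1: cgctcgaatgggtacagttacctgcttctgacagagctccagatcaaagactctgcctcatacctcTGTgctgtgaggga
Trav13-4-dv7: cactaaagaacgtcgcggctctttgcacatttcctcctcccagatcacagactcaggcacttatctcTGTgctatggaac
Trbv2: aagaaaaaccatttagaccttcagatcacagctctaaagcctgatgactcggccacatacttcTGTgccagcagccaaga
Trav22: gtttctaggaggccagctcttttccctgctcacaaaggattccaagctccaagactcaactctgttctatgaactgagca

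Which V genes were found in T cells went with their annotation and their uniqueness. All 22 Trbv genes annotated as functional were found, against 1 of 13 Trbv pseudogenes. Among Trav genes, 63 of 108 functional genes and 4 of 20 pseudogenes were found. For each gene the share of 90-base windows (the read length) of its longest transcript that occur in no other V gene transcript was computed. Of 34 functional Trav genes without a unique window, 0 were found. With under 20% unique windows 4 of 41 were found, with 20% to 80% 28 of 32, and with over 80% 31 of 35. The duplicated Trav copies, which carry d or n after the family number, were found in 24 of 73 cases, and the other Trav genes in 43 of 55. These counts are a description across genes of shared families.

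The invariant NKT gene shows the limit. Trav11 had 0.394% unique windows and was found in 1 T cell, and Trav11d, identical to it over the last 250 bases, had 0% and was found in 0. Few such cells and reads that were not counted cannot be told apart here.

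A Trav UMI was found in 263 of 1610 T cells (16.3%, interval 14.6 to 18.2) and 18 of 126 (14.3%, 8.69 to 21.6) of the CD45 sort, and in 127 of 639 (19.9%, 16.8 to 23.2) and 151 of 709 (21.3%, 18.3 to 24.5) of the T cell sort. A Trbv UMI was found in 15.6%, 12.7%, 19.6% and 17.5% of T cells. At least 1 V gene was seen in 23.8% to 34.7% of T cells, so most receptors were not read. Positive cells held 1.22 to 1.5 Trav UMIs and 1.12 to 1.28 Trbv UMIs on average. For each 1000 Trac UMIs there were 40.6 (36.7 to 44.8), 32.7 (20.5 to 49.5), 61.6 (53.1 to 71.1) and 48.5 (42.3 to 55.4) Trav UMIs. For each 1000 Trbc UMIs there were 7.09 (6.30 to 7.96), 7.34 (4.35 to 11.6), 13.3 (11.2 to 15.5) and 11.3 (9.59 to 13.2) Trbv UMIs. By these ratios to constant-gene UMIs the T cell sort stood above the CD45 sort on both chains. Only between the ZsG-negative libraries were they above by more than counting error. Between the ZsG-positive ones the log2 ratio per constant-gene UMI was 0.57 (-0.07 to 1.27) for Trav and 0.62 (-0.09 to 1.41) for Trbv.

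Depth moved with detection. T cells with a Trav UMI held a median of 11098, 15785, 6498 and 8309 UMIs, and those without one 6786, 5287, 5699.5 and 5865.5. After each cell was thinned to 2000 UMIs, which left out 1, 0, 2 and 12 shallower cells, Trav was found in 5.41%, 1.59%, 7.06% and 7.17% of T cells and Trbv in 3.6%, 2.38%, 9.42% and 6.17%. Chain comparisons by ZsG, Cd8a, Foxp3 and Klra are therefore in most cases also given after thinning and as CPM, the summed UMIs of the V genes scaled to the same total for each group. Intervals for CPM and for ratios to constant-gene UMIs count each V gene UMI as separate. A cell can give several, so these intervals can be too narrow. Thinning was a single random draw for each cell, and the intervals of thinned shares leave out the spread between draws.

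Cells that lack a T cell receptor showed far fewer V genes. Of 3229 macrophages of the CD45 sort (over 10 UMIs of C1qa, C1qb and Lyz2, no CD3 UMI, median 9764 UMIs), 7 held a V gene UMI (0.217%). Of 313 macrophages of the T cell sort 0 did, which allows a share of up to 0.958%. Of 1930 NK cells of the CD45 sort (an Ncr1 UMI, under 3 CD3 UMIs, median 4818.5 UMIs), 27 held a Trav UMI (1.40%) and 2 a Trbv UMI (0.104%). The shares in T cells stood above all of these, and macrophages were deeper than T cells.

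**Figure D1:**
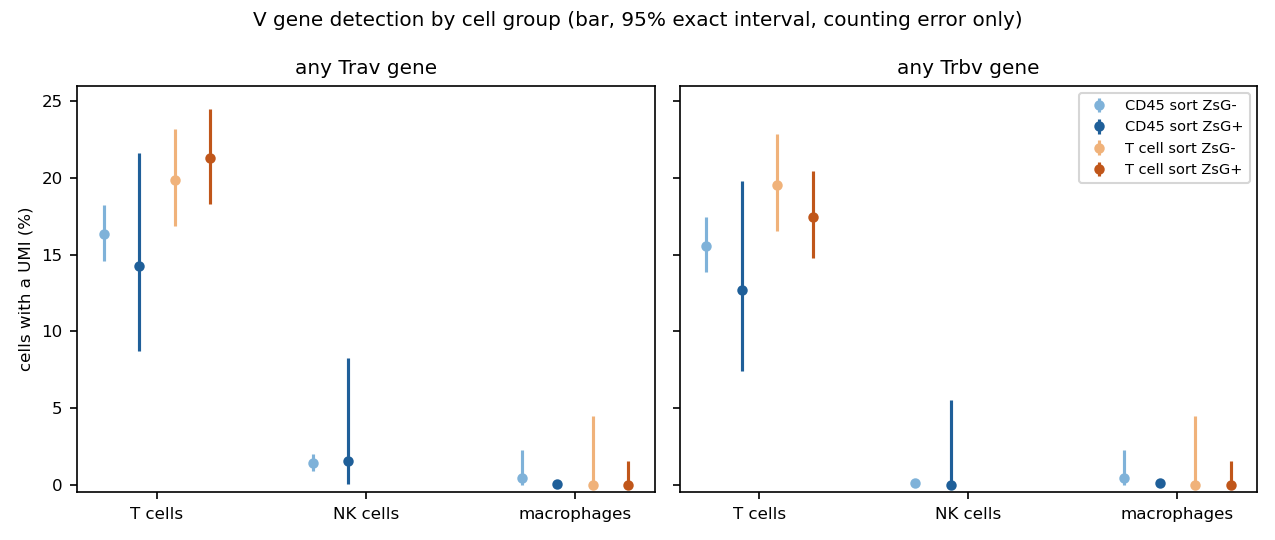
Percent of cells with a UMI of any Trav gene or any Trbv gene in T cells, NK cells and macrophages of the libraries. Points are shares and bars 95% exact intervals for counting error. T cells lie between 12.7% and 21.3%, above NK cells and macrophages.

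The Trav signal of NK cells came almost wholly from the pseudogene Trav22. It was found in 26 of the 1930 NK cells, in 3 T cells of the CD45 sort, and in 0 barcodes of the T cell sort, never with more than 1 UMI. Of 46 barcodes with Trav22, 30 held an Ncr1 UMI. It was the only V gene with a higher share in NK cells than in T cells, and 3 NK cells held another V gene.

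Among T cells no V gene dominated. In the T cell sort Trav16 led the Trav genes, with 15 of 639 ZsG-negative (2.35%, 1.32 to 3.84) and 18 of 709 ZsG-positive T cells (2.54%, 1.51 to 3.98), followed by Trav16n with 15 and 10 cells. The other Trav genes named by frequency had 3 to 9 ZsG-negative and 4 to 11 ZsG-positive cells: Trav6-7-dv9, Trav7-5, Trav3-3, Trav13-1, Trav12-2, Trav9-4, Trav14d-3-dv8 and Trav10. Neighbours in this order had overlapping intervals.

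Among Trbv genes, Trbv12-2 had 15 ZsG-negative (2.35%, 1.32 to 3.84) and 15 ZsG-positive T cells (2.12%, 1.19 to 3.47) of the T cell sort, and Trbv2 16 and 11. Trbv13-1 was found in 11 and 13 cells, Trbv13-2 in 11 and 12, and Trbv15 in 11 and 7. Trbv12-1 and Trbv19 had 8 and 9 cells each, Trbv1 9 and 6, Trbv20 5 and 10, Trbv16 8 and 6, Trbv3 4 and 9, and Trbv17 6 and 6. These genes too formed an order without gaps. Trbv31, which lies in inverted orientation beyond the constant genes (chr6:41557691-41558452, minus strand), had 4 and 4, Trbv13-3 2 and 2, and the pseudogene Trbv12-3 0. In cells with a leading gene of a chain, no gene took more than 12.9% in the 3 libraries other than the ZsG-positive one of the CD45 sort, which had 17 such cells for Trav and 16 for Trbv. The 5 most frequent Trav genes made up 42.7%, 36.7% and 36.0% of such cells in these 3 libraries, and the 5 most frequent Trbv genes 51.2%, 49.2% and 47.5%. Scaled to 100 such cells, 38.6, 36.5 and 39.1 Trav genes and 18.4, 17.6 and 19.3 Trbv genes would be met.

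**Figure D2:**
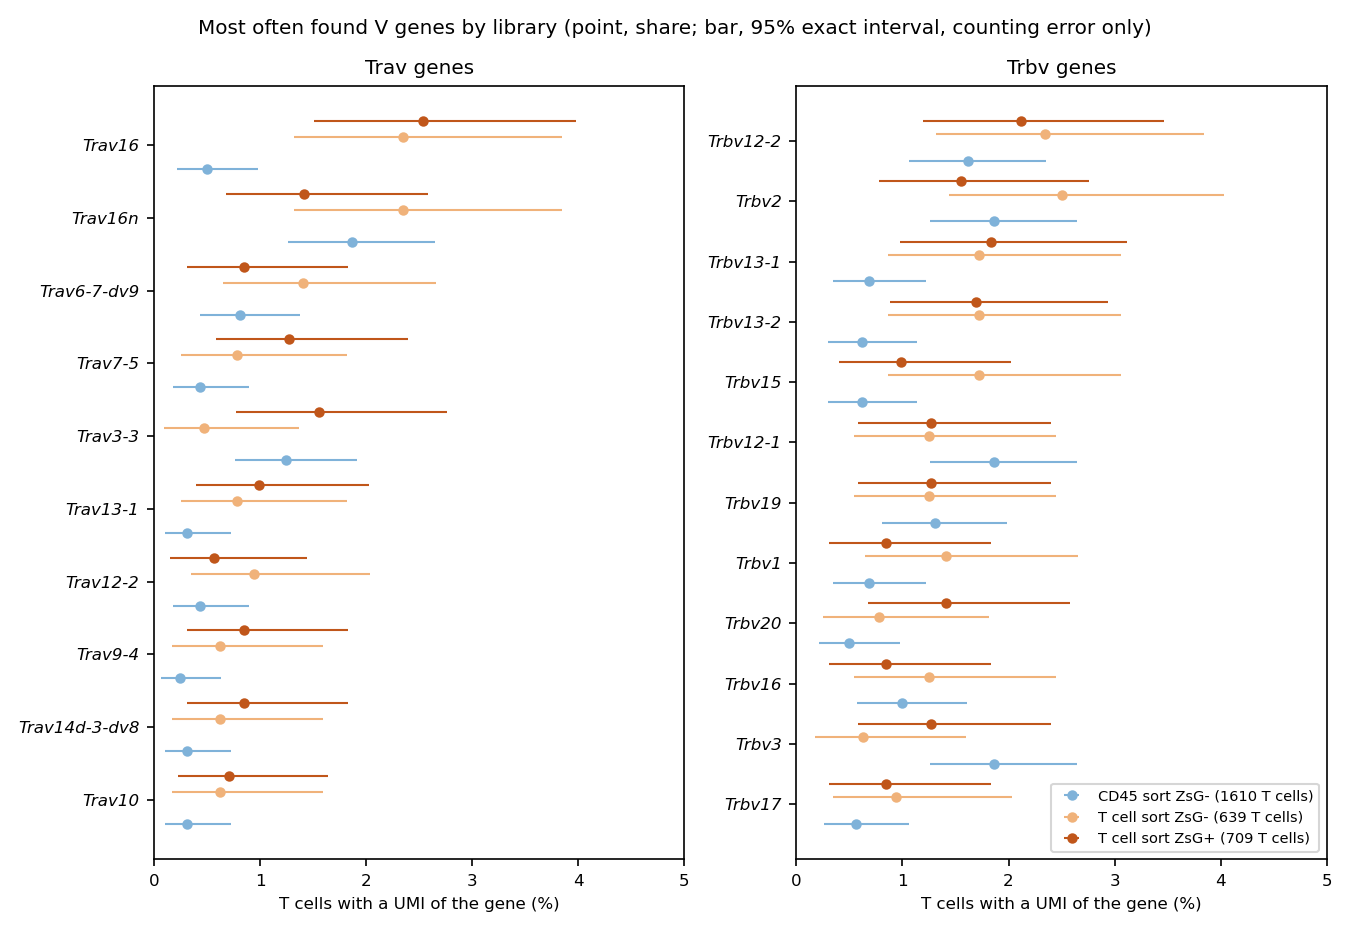
Percent of T cells with a UMI of each of the 10 Trav and 12 Trbv genes found most often in the T cell sort. Points are shares by library and bars 95% exact intervals for counting error. In the T cell sort Trav16 lies at 2.35% and 2.54% and Trbv12-2 at 2.35% and 2.12%, and the bars of neighbouring genes overlap.

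The first comparison asked whether T cells sorted as ZsG-positive used other V genes than those sorted as ZsG-negative. Per the study's text, the gate of the CD45 sort took bright cells, and most lymphocytes with ZsG fell on its negative side, so the ZsG-negative T cells of that sort are not cells without ZsG. In the T cell sort, 0 of the 6 V genes with a UMI in at least 20 T cells differed 2-fold or more in share (the other 70 of 76 found were under this minimum), where 7.03% of 9841 genes with the same minimum did. Trav16n was lowest in ZsG-positive T cells (log2 ratio -0.73, -2.05 to 0.52), next to Trbv2 (log2 ratio -0.69, -1.94 to 0.51), and Trav16 highest (log2 ratio 0.11, -0.96 to 1.2). Trbv12-2, Trbv13-2 and Trbv13-1 lay between, at -0.15, -0.02 and 0.09. All 6 intervals of shares included 0, and they were wide, so they do not show that usage was alike. By CPM, Trav16n gave -1.23 (-2.35 to -0.18) and Trbv2 -1.19 (-2.26 to -0.17), both beyond the counting error of UMIs. The CPM intervals of Trav16, Trbv12-2, Trbv13-2 and Trbv13-1 included 0. Summed over the family, the Trbv12 genes were found in 23 ZsG-negative and 24 ZsG-positive T cells (-0.09, -0.98 to 0.80). The Trbv13 genes were found in 24 and 27 (0.02, -0.83 to 0.88), and the Trav16 genes in 31 and 31 (-0.15, -0.92 to 0.62). No family shown here differed in share beyond counting error.

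Below the minimum of 20 cells, Trav3-3 was found in 3 ZsG-negative and 11 ZsG-positive T cells (log2 ratio 1.72, -0.20 to 4.21) and Trbv3 in 4 and 9 (1.02, -0.82 to 3.17). Of 76 V genes found in this sort, 58 were found in both libraries. With 70 of the 76 under the minimum of 20 cells and no such count over all genes beside it, this shows neither likeness nor difference in usage.

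Over a whole chain, Trav was found in 21.3% of ZsG-positive and 19.9% of ZsG-negative T cells (log2 ratio 0.10, -0.25 to 0.45), and Trbv in 17.5% and 19.6% (-0.16, -0.53 to 0.21). Thinned shares of Trbv were 6.17% and 9.42% (-0.61, -1.21 to -0.02), and its CPM 24.5 and 33.3 (-0.44, -0.77 to -0.11). By both of these measures the interval for Trbv lay below 0, for the thinned share only just and from a single random draw. The intervals of the plain share and of the ratio to Trbc UMIs (-0.23, -0.56 to 0.10) included 0. For Trav the thinned value was 0.02 (-0.59 to 0.64), the CPM value -0.25 (-0.54 to 0.04), and the ratio to Trac UMIs -0.34 (-0.63 to -0.05).

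In the CD45 sort, 5 of 9 V genes were at least 2-fold lower in ZsG-positive T cells and 0 were 2-fold higher, where 8.82% of 11021 genes passed the same fold either way. These 5 rested on 0 or 1 ZsG-positive cell: Trbv12-1 and Trbv3 had 1 against 30 ZsG-negative cells (log2 ratio -1.23, -6.58 to 1.36), Trav1 1 against 27, Trbv12-2 1 against 26, and Trav13-4-dv7 0 against 21. A count of 0 among 126 cells allows a share of up to 2.38%, above that of any of these genes in the ZsG-negative library. Any Trav gene gave -0.19 (-0.97 to 0.50) and any Trbv gene -0.30 (-1.13 to 0.43), so no difference was detectable with 126 cells. In T cells without a UMI of C1qa, C1qb or Lyz2 the Trav share of the ZsG-positive library was 5.56% (0.141 to 27.3) in place of 14.3%. The interval is wide because most of the 126 T cells of that library held a UMI of these macrophage genes and few did not.

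**Figure D3:**
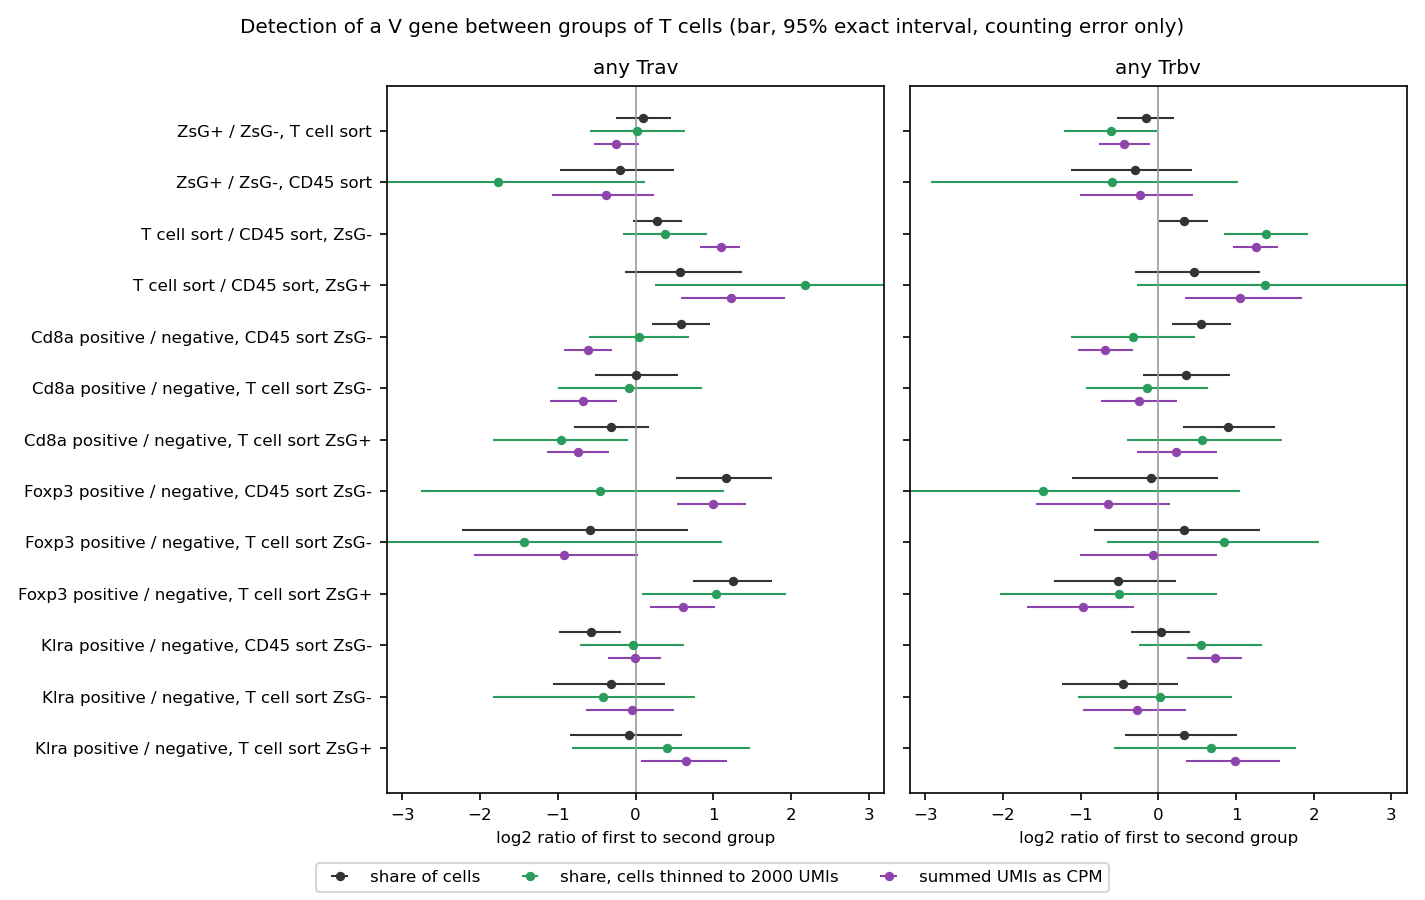
Log2 ratio between groups of T cells for any Trav gene and any Trbv gene, as the share of cells with a UMI, the share after thinning to 2000 UMIs, and summed UMIs as CPM. Bars are 95% exact intervals for counting error. Between Cd8a-positive and Cd8a-negative T cells of the CD45 sort the Trav share lies at 0.59 and the Trav CPM at -0.60.

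The second comparison set the V genes by Cd8a, a chain of the CD8 co-receptor. In the T cell sort all 6 V genes with at least 20 cells had a higher share in Cd8a-positive cells, 2 of them at least 2-fold, where 9.48% of 9841 genes passed that fold either way and the median log2 ratio of all genes was 0.37. Trav16n was found in 11 and 8 Cd8a-positive and 4 and 2 Cd8a-negative cells of the ZsG-negative and ZsG-positive libraries (over both, log2 ratio 1.18, -0.20 to 2.79). Trbv13-1 was found in 8 and 10 against 3 and 3 (1.10, -0.29 to 2.72). Both intervals included 0. Cd8a-positive cells were deeper, with medians of 6608 against 4885.5 and 7440 against 4880.5 UMIs. Trav13-1, under the minimum, was found in 11 Cd8a-positive and 1 Cd8a-negative cell (log2 ratio 2.98, 0.19 to 8.40), and in 2 and 3 of the CD45 sort.

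In the CD45 sort 46.3% of 11021 genes passed the 2-fold mark, with a median log2 ratio of 0.93, and 5 of 9 V genes did, all toward Cd8a-positive cells, a share near that background. Trav1 was found in 24 of 907 Cd8a-positive and 4 of 829 Cd8a-negative T cells (log2 ratio 2.46, 0.91 to 4.44). Trbv12-1 was found in 24 and 7 (1.65, 0.39 to 3.11), Trbv19 in 17 and 5 (1.64, 0.14 to 3.43) and Trav16n in 23 and 9 (1.22, 0.06 to 2.52). Against Cd4-positive cells in place of all Cd8a-negative ones, Trav1 gave -0.031. This value rests on at most the 4 Cd8a-negative cells with Trav1, since Cd4 was found in only 115 and 16 T cells of the ZsG-negative and ZsG-positive libraries. The 4 intervals of the fold against all Cd8a-negative cells did not include 0, in cells with medians of 14077 and 5119 UMIs. Trbv13-2 went the other way, with 1 and 11 cells (-3.59, -9.02 to -0.81), although in the T cell sort it had 16 and 7 (0.71, -0.65 to 2.23).

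Over a whole chain the direction depended on the measure. In the CD45 sort Trav was found in 19.3% of Cd8a-positive and 12.8% of Cd8a-negative T cells (log2 ratio 0.59, 0.24 to 0.96), with 0.10 (-0.54 to 0.73) after thinning and -0.60 (-0.90 to -0.30) by CPM. Trbv gave 0.54 (0.18 to 0.91) by share, -0.27 (-1.05 to 0.50) after thinning and -0.67 (-1.01 to -0.33) by CPM. In the T cell sort Trbv gave 0.62 (0.23 to 1.03), 0.14 (-0.45 to 0.75) and -0.02 (-0.36 to 0.34). The plain shares of Trbv were thus higher in Cd8a-positive cells of both sorts and the summed UMIs were not. Over both libraries of the T cell sort together, Trav was on the Cd8a-negative side by all of them, with -0.17 (-0.52 to 0.18) by share and -0.71 (-1.0 to -0.42) by CPM. By library the Trav share gave 0.003 (-0.53 to 0.54) at ZsG-negative and -0.31 (-0.79 to 0.17) at ZsG-positive. Per Trac UMI the Trav log2 ratio was -0.85 (-1.15 to -0.55) in the CD45 sort and -0.55 (-0.84 to -0.26) in the T cell sort.

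The third comparison set the V genes by Foxp3, the defining transcription factor of regulatory T cells. A Trav UMI was found in 26 of 75 Foxp3-positive (34.7%) and 237 of 1535 other T cells (15.4%) of the ZsG-negative library of the CD45 sort (log2 ratio 1.17, 0.52 to 1.75). In the ZsG-positive library of the T cell sort it was found in 53 of 131 (40.5%) and 98 of 578 (17%; 1.25, 0.74 to 1.75), and in the ZsG-negative library in 5 of 37 (13.5%) and 122 of 602 (20.3%; -0.58, -2.23 to 0.68). The share was thus higher in Foxp3-positive cells beyond counting error in 2 of these libraries and pointed the other way in the third. Over the libraries of each sort together, the median log2 ratio of shares of all genes by Foxp3 status was 0.45 in the T cell sort and 0.48 in the CD45 sort. For Trbv the log2 ratios of shares in the same order were -0.09, -0.51 and 0.34, each with an interval that included 0.

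Foxp3-positive cells held more Trac UMIs per cell in all 3 of these libraries, also where their Trav share was lower. They also held more UMIs of all genes per cell in each, and the Trac averages are not scaled to that depth. In the ZsG-positive library of the T cell sort the 131 Foxp3-positive cells held 1549534 UMIs and the 578 others 4930315. In the ZsG-positive library of the T cell sort, Foxp3-positive cells held 10.1 Trac UMIs on average and the others 5.52, and the Trav log2 ratio per Trac UMI was 0.21 (-0.22 to 0.62). In the ZsG-negative library of the CD45 sort they held 12.6 and 5.70, with 0.42 (-0.03 to 0.86). In the ZsG-negative library of the T cell sort they held 8.03 and 4.55, with -1.10 (-2.25 to -0.14). Per Trac molecule the first 2 intervals thus included 0, and the third lay below it. The third rests on 9 Trav UMIs from 5 of 37 Foxp3-positive cells, and counted by cell that library gave -0.58 (-2.23 to 0.68). After thinning, the log2 ratio of shares was 1.04 (0.08 to 1.93) in the first library, -0.45 (-2.76 to 1.14) in the second and -1.44 (-6.78 to 1.11) in the third. By CPM the Trav values were 0.61 (0.18 to 1.03), 0.99 (0.54 to 1.43) and -0.92 (-2.07 to 0.04), the first and second above 0 by more than counting error.

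For Trbv the measures differed. In the ZsG-positive library of the T cell sort its CPM was lower in Foxp3-positive cells by more than counting error (-0.97, -1.69 to -0.31), and its thinned value was -0.50 (-2.04 to 0.76). In the ZsG-negative library of the CD45 sort the values were -0.65 (-1.57 to 0.15) by CPM and -1.48 (-6.81 to 1.06) after thinning, and in that of the T cell sort -0.06 (-1.01 to 0.76) and 0.85 (-0.66 to 2.06).

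By single gene, 2 of 6 V genes of the T cell sort were at least 2-fold lower in Foxp3-positive cells, where 19.9% of 9841 genes passed the fold either way. Trbv13-2 was found in 0 of 168 Foxp3-positive and 23 of 1180 other T cells, and Trbv12-2 in 1 and 29 (log2 ratio -2.05, -7.40 to 0.55). In the CD45 sort 3 of 9 V genes passed the fold, where 17.7% of 11021 genes did, and Trbv13-2, under the minimum there, was found in 3 of 86 Foxp3-positive and 9 of 1650 other T cells (2.68, 0.16 to 4.68). The count of 0 gives a log2 ratio of at most 0.29, which includes no change. Of the 3 Foxp3-positive cells with it in the CD45 sort, 2 were in the ZsG-positive library, and without it Trbv13-2 was found in 1 of 75 and 9 of 1535 cells (1.19, -4.27 to 4.04). Trav14d-3-dv8 was found in 5 Foxp3-positive and 5 other T cells of the T cell sort (log2 ratio 2.81, 0.69 to 4.93) and in 1 and 4 of the CD45 sort.

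The fourth comparison set the V genes by Klra1, Klra6 and Klra7, which encode receptors of the Ly49 family. In the T cell sort 0 of 6 V genes passed the 2-fold mark, where 14.9% of 9841 genes did. Trbv12-2 was found in 3 of 225 Klra-positive and 27 of 1123 Klra-negative cells (log2 ratio -0.85, -3.22 to 0.85), and Trbv2 in 3 and 24 (-0.68, -3.06 to 1.04). Trbv19 was found in 0 Klra-positive and 17 Klra-negative cells. In the CD45 sort Trbv19 was found in 9 and 13 (0.28, -1.13 to 1.62), so its count of 0 did not recur. Trbv17, under the minimum, was found in 6 Klra-positive and 6 Klra-negative cells of the T cell sort (2.32, 0.42 to 4.22). In the CD45 sort it pointed the same way, with 6 and 3 cells (1.81, -0.42 to 4.44). Over the chain in the T cell sort, Trav gave -0.21 (-0.73 to 0.27) by share, 0.00 (-0.88 to 0.79) after thinning and 0.32 (-0.08 to 0.70) by CPM, and Trbv -0.07 (-0.59 to 0.43), 0.34 (-0.43 to 1.04) and 0.39 (-0.06 to 0.81). All of these chain intervals, over both libraries together, included 0. Per constant-gene UMI the ZsG-positive library gave 0.77 (0.19 to 1.301) for Trav and 0.92 (0.295 to 1.502) for Trbv, both above 0. The ZsG-negative library gave -0.04 (-0.63 to 0.51) and -0.36 (-1.05 to 0.28). Over both they were 0.39 (-0.01 to 0.77) and 0.28 (-0.17 to 0.71). Trbv shares also pointed opposite ways, with 0.33 (-0.42 to 1.02) at ZsG-positive and -0.45 (-1.24 to 0.26) at ZsG-negative. Both intervals included 0.

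In the CD45 sort 2 of 9 V genes were at least 2-fold lower in Klra-positive cells, where 22.3% of 11021 genes passed the fold either way. The median log2 ratio of shares over all these genes was -0.59. Trav1 was found in 0 of 631 Klra-positive and 28 of 1105 Klra-negative cells, and Trbv2 in 6 and 27 (log2 ratio -1.36, -2.93 to -0.06). Over the chain, Trav was found in 12.2% and 18.5% (-0.60, -0.99 to -0.21), with 0.04 (-0.62 to 0.69) after thinning, Klra-positive cells being shallower (median 5837 against 9781 UMIs). The thinned interval also held the unthinned value of -0.60, so it cannot show whether the lower Trav share of Klra-positive cells remained at matched depth. Trbv gave 0.02 (-0.35 to 0.39) by share, 0.57 (-0.21 to 1.34) after thinning and 0.75 (0.40 to 1.09) by CPM, and Trav 0.01 (-0.33 to 0.34) by CPM.

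The fifth comparison set the T cell sort against the CD45 sort. The sorts differed in gate, gene list and Cell Ranger version, which cannot be told apart. Among ZsG-negative T cells, Trav stood at 40.1 CPM against 18.8 (1.09, 0.84 to 1.35 on the log2 scale) and Trbv at 33.3 against 13.9 (1.26, 0.97 to 1.54). By share the values were 0.28 (-0.03 to 0.59) and 0.33 (0.01 to 0.64), and per constant-gene UMI 0.60 (0.34 to 0.86) and 0.90 (0.61 to 1.19). Each pointed toward the T cell sort. Among ZsG-positive T cells, CPM gave 1.22 (0.59 to 1.93) for Trav and 1.05 (0.35 to 1.84) for Trbv. Shares there gave 0.58 (-0.13 to 1.37) and 0.46 (-0.29 to 1.31).

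Of 16 V genes with at least 20 cells over both ZsG-negative libraries, 9 differed at least 2-fold, 5 higher and 4 lower in the T cell sort, where 27% of 10887 genes did either way. The median log2 ratio was -0.63 over all these genes and 0.38 over the 16 V genes. Trav16 was found in 15 of 639 T cells of the T cell sort and 8 of 1610 of the CD45 sort (log2 ratio 2.24, 0.91 to 3.69), and in the ZsG-positive libraries in 18 of 709 and 1 of 126. Its near copy Trav16n had 15 and 30 ZsG-negative cells (0.33, -0.67 to 1.27), so the copies did not move alike. Trbv13-2 and Trbv15, each with 11 and 10 cells (1.47, 0.10 to 2.86), Trbv13-1 (1.33, -0.01 to 2.68) and Trbv1 (1.04, -0.41 to 2.45) were also higher. Trbv3 was lower, with 4 and 30 cells (-1.57, -3.54 to -0.07), though not by CPM (0.02, -1.40 to 1.23), and so was Trav3-3, with 3 and 20 (-1.40, -3.80 to 0.35). With T cells that held no C1qa, C1qb or Lyz2 UMI, 3 V genes passed the fold, with no share over all genes under that rule beside it.

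**Figure D4:**
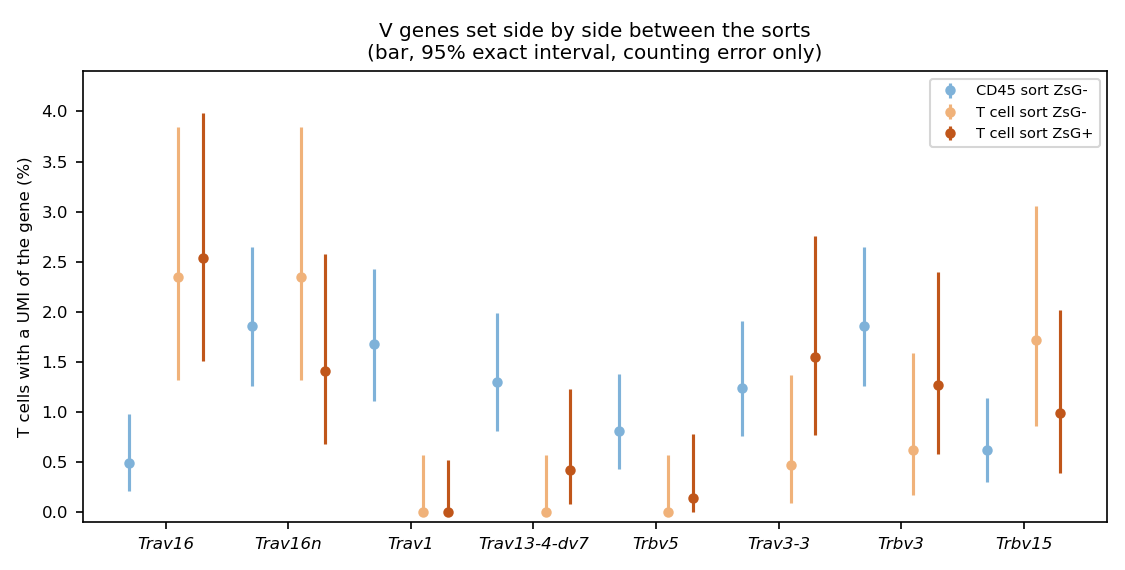
Percent of T cells with a UMI of V genes that were set side by side between the sorts. Points are shares by library and bars 95% exact intervals for counting error. Trav1 lies at 1.68% in the ZsG-negative library of the CD45 sort and at 0 in the T cell sort, and Trav16 at 0.497% and 2.35%.

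Trav1 and Trav13-4-dv7 were found in 27 (1.68%, 1.11 to 2.43) and 21 (1.30%, 0.809 to 1.99) ZsG-negative T cells of the CD45 sort. Both were found in 0 of 639 ZsG-negative T cells of the T cell sort, which allows a share of up to 0.469%. Among 709 ZsG-positive T cells of that sort, Trav1 was found in 0 and Trav13-4-dv7 in 3 (0.423%, 0.087 to 1.23). All 3 held a Foxp3 UMI. Of the 28 Trav1 cells of the CD45 sort, 24 held a Cd8a UMI, 26 a Pdcd1 and 22 a Havcr2 UMI (the inhibitory receptors PD-1 and TIM-3), 27 a UMI of Gzmb (the cytotoxic protease granzyme B) and 18 one of Mki67 (a gene of dividing cells). Tcf7, a transcription factor gene of naive and memory T cells, was found in 0 of them. The Trav1 cells were thus mostly Cd8a-positive cells with inhibitory receptor RNA, and they were deep, with a median of 22428.5 UMIs. Among T cells with Cd8a, Pdcd1 and Havcr2 UMIs, Trav1 was found in 22 of 440 in the CD45 sort (5.00%, 3.16 to 7.47, median 26607 UMIs) and in 0 of 172 in the T cell sort, which allows up to 1.74% (median 13313.5 UMIs).

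A beta chain was rarely read beside Trav1. A Trbv UMI was found in 1 of 28 Trav1 cells (3.57%, 0.09 to 18.3), against 46 of 253 cells with another Trav gene (18.2%, 13.6 to 23.5) and 20 of the 65 among them with Cd8a, Pdcd1 and Havcr2 UMIs (30.8%, 19.9 to 43.4). The interval of the Trav1 cells overlapped the first of these and not the second. The gene read beside Trav1 was Trbv3, while Trbv13 and Trbv19 genes, the usual partners in mucosal-associated invariant T cells, were found in 0. Trbv5, chosen after its values were seen, was found in 13 T cells of the CD45 sort and 1 of the T cell sort. Of the 13, 11 held Cd8a, 11 Pdcd1 and 11 Mki67 UMIs, and 4 held a Trav UMI. Whether these cells stem from few clones was not tested.

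Trav13-4-dv7 went with the delta constant gene. Of 195 T cells with a Trdc UMI in the CD45 sort, 11 held Trav13-4-dv7 (5.64%, 2.85 to 9.87), against 10 of 1541 without one (0.649%, 0.312 to 1.19), a log2 ratio of 3.12 (1.74 to 4.51). The other 9 dv genes were found in 5 and 41 of these cells (2.56% and 2.66%), a difference within counting error. Trav genes without dv in the symbol were found in 2.56% and 14.2% (-2.47, -4.11 to -1.23), and Trbv genes in 6.67% and 16.5% (-1.31, -2.24 to -0.51). T cells with Trdc were the shallower ones, with a median of 5048 against 7605 UMIs. The T cell sort had 13 T cells with a Trdc UMI, and 0 of them held a dv gene. Its 3 T cells with Trav13-4-dv7 were all without a Trdc UMI.

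Pairs of chains could be read in few cells. A Trav and a Trbv gene were found together in 43, 4, 36 and 29 T cells of the libraries, as 44, 4, 36 and 34 distinct pairs. The pairs seen most often, in 3 cells each, were Trav3-3 with Trbv12-1 in the ZsG-negative library of the CD45 sort and Trav13-2 with Trbv15 in that of the T cell sort, both named after their values were seen. All 3 cells of the first pair held Cd8a, Pdcd1 and Mki67 UMIs, while of the second 2 held Cd8a and 0 Pdcd1. In the ZsG-negative library of the CD45 sort 7 pairs recurred, all of them in cells with Cd8a and Pdcd1 UMIs. In that of the T cell sort 2 recurred, and in each ZsG-positive library 0. Of the 2 cells with Trav6d-5 and Trbv12-2 in the T cell sort, 1 held Cd8a and 1 Pdcd1. These counts were not set against all cells with both chains.

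Several V genes of a chain were read in few cells. At least 2 Trav genes were found in 28, 1, 13 and 16 of the 263, 18, 127 and 151 T cells with a Trav UMI. At least 2 Trbv genes were found in 10, 0, 6 and 5 of the 251, 16, 125 and 124 with a Trbv UMI. Since most receptors were not read, these counts do not show how many T cells transcribe several V genes. Rag1 and Rag2, which encode the recombinase, were found in 0 T cells.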

How the data were processed

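The deposited files were 2 gene-by-cell matrices of counts (UMIs per gene and cell, not normalized), 1 for each sort, which the authors made with Cell Ranger from 3′ libraries with a read of 90 bases. The barcode and gene lists deposited beside them hold names, which gave each cell's library and each gene's symbol. The submitters' processing notes name Cell Ranger 6.1.2 and mm10, and the file headers name Cell Ranger 7.0.0 for the CD45 sort and 6.1.2 for the T cell sort. After the limits of the study's methods (1000 to 6000 genes and under 10% mitochondrial UMIs in the CD45 sort, 50 to 6000 and under 15% in the T cell sort), 4698, 4124, 948 and 1879 of 5437, 5168, 1136 and 2396 barcodes stayed. No doublet caller was run, and cells with several Trbv genes were left out as an alternative.

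From the counts, shares of T cells with a UMI were computed with Clopper-Pearson intervals and ratios of shares with exact conditional intervals (scipy 1.17.1 under Python 3.11.15). Where a count was 0, the limit is 3 counts of the total. A ratio of 2 or more either way was the mark, for genes seen in 20 or more T cells of the groups compared. Status meant at least 1 UMI. The computation was tested on simulated data. The genes named were the 10 Trav and 12 Trbv genes found most often in the T cell sort, the 5 highest and 5 lowest ratios of each comparison, Trav1, Trav11, Trav11d, the Trbv12 and Trbv13 genes, Trbv31, and any gene with a higher share in NK cells than in T cells. The members, lists and comparisons were chosen with earlier results of these data known. Positions, biotypes and sequences came from GENCODE vM21 (GRCm38), whose gene IDs matched those of both files for all 163 genes.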

Additional observations from a re-analysis of the deposited data

Results flagged for a closer look

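The point estimates of Trbv13-2 differed in sign between the sorts. By Cd8a status its log2 ratio of shares was -3.59 in the CD45 sort and 0.71 in the T cell sort. By Foxp3 status it was 2.68 in the CD45 sort, while in the T cell sort it was found in 0 Foxp3-positive cells, which does not exclude no change. Both Trbv13-2 values of the CD45 sort rest on few cells.

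By Foxp3 status Trav6-7-dv9 was found in 5 positive and 10 other T cells of the CD45 sort (log2 ratio 3.26, 1.36 to 4.95). In the T cell sort it was found in 1 and 14 (-1.0, -6.40 to 1.72). By Klra status it was found in 2 and 13 (-1.89, -5.08 to 0.25) and in 4 and 11 (0.86, -1.25 to 2.61). Apart from the Foxp3 value of the CD45 sort, these intervals included 0. For Trbv2 the log2 ratio between ZsG-positive and ZsG-negative T cells was 0.35 in the CD45 sort and -0.69 in the T cell sort. None of these differences between sorts was tested.

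The pseudogene Trav22 was found in 26 NK cells of the CD45 sort, which the comparisons of T cells did not use. The cause was not tested.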

How the results depend on the processing

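No paired analysis was possible because each group has 1 library. Of 93 values, all 93 run without the limits on genes and mitochondrial share, all 93 run without cells with several Trbv genes, the 54 run as usage among cells with a leading gene, the 14 run with a Trac or Trbc UMI and no Ncr1 UMI and the 8 run with 0.055% CD3 UMIs stayed within their interval, or within 1.5 times for a count. V gene depth was low, with few UMIs in a positive cell. Causes of the changes below were not tested, except that stricter detection leaves fewer genes at the minimum of 20 cells. Counts of V genes past 2-fold below stand without the share over all genes under the same alternative. They therefore do not show a stronger or weaker difference. In each list the order is CD45 sort ZsG-negative, CD45 sort ZsG-positive, T cell sort ZsG-negative, T cell sort ZsG-positive.

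After thinning to 2000 UMIs, Trav was found in 5.41%, 1.59%, 7.06% and 7.17% of T cells and Trbv in 3.6%, 2.38%, 9.42% and 6.17%. The ZsG log2 ratio was -1.77 for Trav in the CD45 sort and -0.61 for Trbv in the T cell sort. Between sorts it was 2.18 for Trav and 1.37 for Trbv at ZsG-positive, and 1.39 for Trbv at ZsG-negative. By Cd8a it was 0.10 for Trav and, turned round, -0.27 for Trbv in the CD45 sort, and -0.54 and 0.14 in the T cell sort. By Foxp3 in the CD45 sort it turned round to -0.58 for Trav and was -1.65 for Trbv, and by Klra it turned round to 0.044 for Trav and was 0.57 for Trbv. The V genes past 2-fold were 1 between the sorts at ZsG-negative, and 0 by ZsG in the CD45 sort, by Cd8a and Foxp3 in both sorts and by Klra in the CD45 sort.

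With 2 UMIs needed, Trav was found in 3.6%, 2.38%, 5.16% and 4.94% and Trbv in 1.61%, 0.794%, 3.44% and 3.24%. Trbv log2 ratios were 1.09 and 2.03 between the sorts at ZsG-negative and ZsG-positive, 1.38 and 0.10 by Cd8a and -1.0 and 0.51 by Klra in the CD45 and T cell sorts. Trbv3 turned round between the sorts (2.33), as did Trav1 by Cd8a (-0.13). The V genes past 2-fold were 0 by ZsG in the CD45 sort, between the sorts, by Cd8a and Foxp3 in both sorts and by Klra in the CD45 sort.

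By CPM the log2 ratios by Cd8a turned round to -0.60 for Trav and -0.67 for Trbv in the CD45 sort and to -0.016 for Trbv in the T cell sort, where Trav was -0.71. By Foxp3 Trav was 0.20 in the T cell sort. By Klra Trav turned round to 0.011 in the CD45 sort and was 0.32 in the T cell sort, and Trbv was 0.75 in the CD45 sort. Between the sorts at ZsG-negative, Trav was 1.09, Trbv 1.26 and Trbv3 turned round to 0.023.

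Against Cd4-positive cells in place of all Cd8a-negative cells, Trav turned round to -0.39, Trbv to -0.13 and Trav1 to -0.031 in the CD45 sort, where 3 V genes passed 2-fold, and Trav was -0.56 in the T cell sort. The Trav1 value rests on few cells. With 0 UMIs of C1qa, C1qb and Lyz2, Trav was found in 5.56% of ZsG-positive T cells of the CD45 sort, with log2 ratios of -1.57 by ZsG and 1.94 between the sorts. Few T cells of that library met this rule, so these 3 values rest on few cells. The V genes past 2-fold were then 3 between the sorts, 3 and 1 by Cd8a and 1 and 2 by Klra in the CD45 and T cell sorts. With 5 CD3 UMIs 1 V gene passed by Cd8a in the T cell sort. With 2 Foxp3 UMIs 5 and 4 passed by Foxp3 in the CD45 and T cell sorts. With 3 Klra UMIs 3 passed by Klra in the T cell sort. The stricter Foxp3 and Klra rules left fewer positive cells, so the higher counts are not read as larger differences. Within Cd8a-positive and within Cd8a-negative cells 0 passed by ZsG in the CD45 sort. Without T cells that held an Ncr1 or Trdc UMI, an alternative chosen after seeing the data, Trbv was found in 17.5% of ZsG-negative T cells of the CD45 sort and 1 V gene passed by Klra in the T cell sort.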

Other observations

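After the Trav16 family, the Trav families found most often in the T cell sort were, with ZsG-negative and ZsG-positive T cells and the log2 ratio of shares, the Trav7 family in 15 and 21 (0.34, -0.69 to 1.40), the Trav9 family in 10 and 18 (0.70, -0.49 to 1.98), the Trav14 family in 14 and 14 (-0.15, -1.33 to 1.03), the Trav6 family in 15 and 12 (-0.47, -1.70 to 0.72) and the Trav13 family in 10 and 17 (0.62, -0.59 to 1.90). All these intervals, which cover counting error only, included 0.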
